A study of Mus musculus with 12 samples.

Results

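The genes described here encode 10 proteins that hold the striated muscle sarcomere together: the Z-disc proteins Actn2, Ldb3, Tcap, Csrp3 and Myoz2, the giant protein titin (Ttn) and its partner Ankrd1, the M-band proteins Myom1 and Myom2, and desmin (Des). They were taken by name, and all of their probes were read. Of 20875 genes tested on the array these 10 were all tested, and they carried 19 of the 41174 probes. Total RNA of mouse cells had been measured on 12 one-colour arrays in 3 groups of 4. The groups were mouse embryonic stem cells (mESC), cells at day 9 and cells at day 14 of a cardiomyocyte differentiation. Per the labels, the culture plates carried crosslinked ELP, an elastin-like polypeptide, and the cells grew first without LIF, a cytokine that holds mouse stem cells in the undifferentiated state, and then with a serum replacement. That culture text stands unchanged under the stem cell samples too, so their own culture is not settled by it, and no genetic change, sorting or added cardiac factor is named for any group. The design text sets the stem cells against both days.

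In a sarcomere the Z-disc anchors the barbed ends of thin filaments, and alpha-actinin crosslinks them there. Titin spans from the Z-disc to the M-band, where myomesins tie thick filaments to each other. Desmin filaments run between neighbouring Z-discs and join them to the rest of the cell, and several Z-disc proteins, among them the muscle LIM protein and the titin-bound ankyrin repeat proteins, are also known to move to the nucleus or to respond to stretch.

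Each value below is a level: the log2 signal of a probe minus the 75th percentile of all probes on the same array, so that 0 is the signal of that percentile. Levels of different probes are not set against each other, because probes bind with different strength. That percentile lay between a signal of 346 and 386 in mESC, between 395 and 438 at day 9 and between 463 and 508 at day 14. Between 59.5% and 67.9% of the probes on an array stood well above background. The 12 arrays limit the precision of every value. The 3 groups were hybridised on 3 different slides and scanned separately, so an effect of slide cannot be told apart from one of group. Separate cultures are not stated for the 4 replicates, and p-values therefore reflect the spread of these samples alone, which may be technical. Of the cardiomyocyte markers 7 of 7 were higher at both days than in mESC, and of the pluripotent stem cell markers 5 of 5 were lower. Of the fibroblast markers 5 of 5, of the smooth muscle markers 4 of 5 and of the liver or visceral endoderm markers 4 of 4 were higher as well. The RNA came from whole cultures, in which fewer cells of a type and less RNA per cell cannot be told apart.

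The upstream sequences of 4 of these genes are shown first, because they hold motif matches that the next paragraph describes. RefSeq upstream windows of assembly GRCm38.p6 were found for 8 of the 10 genes, with none listed for Myom2 and Tcap. Each window is the 250 bases before an annotated start, read 5′ to 3′ on the strand of the gene. Capitals mark matches to the motifs of the muscle factors MEF2, serum response factor (the CArG box), TEAD (the MCAT motif) and the GATA proteins, searched on both strands. No 2 matches in these windows overlapped. The window of Ttn lies on the minus strand at chr2:76982548-76982797 and that of Myoz2 on the minus strand at chr3:123034988-123035237. The window of Ankrd1 lies on the minus strand at chr19:36119845-36120094, and that of Myom1 on the plus strand at chr17:71019307-71019556, which is inside the annotated span of the gene.
Ttn: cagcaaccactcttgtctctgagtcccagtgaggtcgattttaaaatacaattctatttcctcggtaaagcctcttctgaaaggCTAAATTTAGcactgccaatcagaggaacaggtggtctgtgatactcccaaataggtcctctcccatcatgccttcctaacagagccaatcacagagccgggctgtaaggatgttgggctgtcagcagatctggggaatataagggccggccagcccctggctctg
Myoz2: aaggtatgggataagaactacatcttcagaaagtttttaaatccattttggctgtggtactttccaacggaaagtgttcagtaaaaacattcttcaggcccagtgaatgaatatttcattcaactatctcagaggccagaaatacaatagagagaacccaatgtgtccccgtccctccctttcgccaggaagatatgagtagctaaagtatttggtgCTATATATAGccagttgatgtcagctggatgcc
Ankrd1: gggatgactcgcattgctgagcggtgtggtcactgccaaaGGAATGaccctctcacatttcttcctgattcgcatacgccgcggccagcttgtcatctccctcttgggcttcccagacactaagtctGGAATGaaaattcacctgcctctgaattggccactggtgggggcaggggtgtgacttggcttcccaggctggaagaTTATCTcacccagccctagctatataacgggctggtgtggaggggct
Myom1: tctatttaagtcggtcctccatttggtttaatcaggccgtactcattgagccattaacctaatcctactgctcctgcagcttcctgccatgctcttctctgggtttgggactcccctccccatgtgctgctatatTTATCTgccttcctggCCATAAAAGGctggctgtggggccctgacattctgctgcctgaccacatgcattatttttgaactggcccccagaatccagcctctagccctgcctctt

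The MEF2 motif had a match in the windows of Ttn (CTAAATTTAG, from -166 to -157 relative to the start) and of Myoz2 (CTATATATAG, from -33 to -24). Among all 32851 RefSeq windows 0.508% held one. The CArG box matched in Myom1 (CCATAAAAGG, from -99 to -90) and in both overlapping windows of Ldb3 (CCATTTATGG), against 1.47% of all windows. The MCAT motif, CATTCC, matched at 2 places in Ankrd1, beginning at -210 and -123, and 12.6% of all windows held it. A match to the GATA motif, AGATAA, began at -47 in Ankrd1 and at -115 in Myom1, with 9.99% of all windows holding one. The E-box, CANNTG, was found in 7 of the 8 genes and in 66.2% of all windows. TATAAA, searched on the strand of the gene, was found in 0 of the 8 genes and in 7.59% of all windows. These are matches of letters, and the arrays did not measure binding.

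Set against mESC, 8 of the 10 genes were higher at day 9, 1 was lower (Myom2) and 1 was not called (Myoz2). Calls needed an adjusted p below 0.05 together with a log2 fold change of 1 or more in size. Of all genes tested, 41% were called in this comparison, 20% higher and 21% lower. At day 14 against mESC 9 of the 10 were higher and Myom2 was not called, where 46.9% of all genes were called, 22.8% higher and 24.1% lower. The median log2 fold change of the 10 genes was 3.99 at day 9 and 4.55 at day 14 against mESC, beside -0.16 and -0.19 over all genes. With the genes below background in mESC taken at their bounds it was 3.99 and 4.25. Tcap, Csrp3, Myoz2 and Ankrd1 were not well above background on any mESC array and entered the test only through the later groups, so a difference in them was built into the selection. Myoz2 entered through day 14 alone, so this holds for its difference between the days too. Between the days, day 14 against day 9, 2 of the 10 were higher (Myoz2 and Myom2) and 8 were not called, where 13.8% of all genes were called, 10.2% higher and 3.61% lower. Higher calls made up 73.8% of the total, and 60.5% with each array scaled to its median instead. Their median was -0.09, the same as the -0.09 over all genes. The arrays of the groups did not overlap in 9 of the 10 genes at day 9 and in 10 at day 14 against mESC, which was so for 78.6% and 83.9% of all genes. Between the days 2 of the 10 did not overlap, against 57.4% of all genes.

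**Figure D1:**
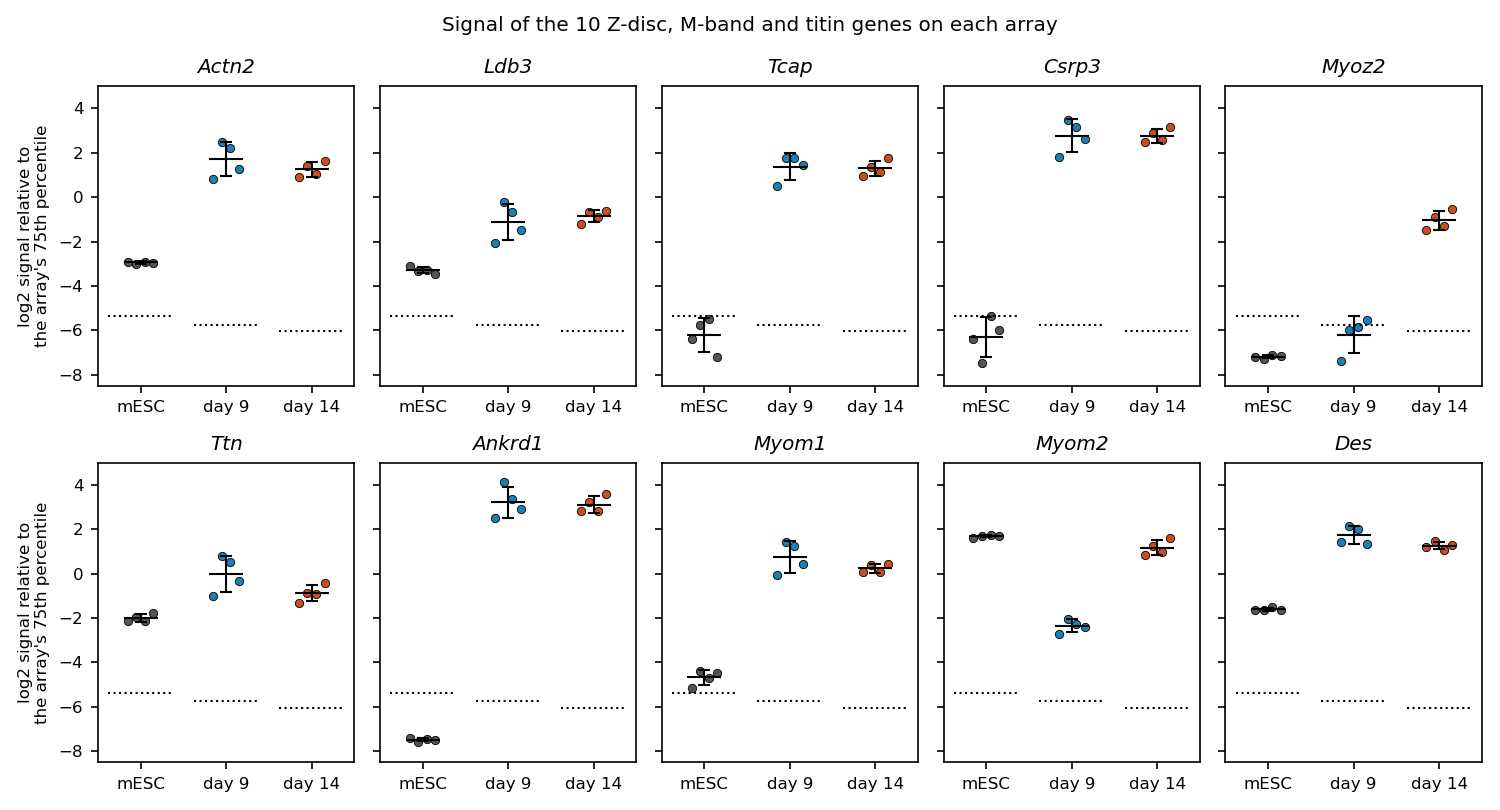
Level of each of the 10 genes on every array, as log2 signal minus the 75th percentile of the array (vertical axis), for mESC, day 9 and day 14 (horizontal axis). Points are arrays, long bars are means, error bars are SD (n = 4) and dotted lines are the mean over arrays of the lowest level well above background. Most panels show both days above mESC, while Myom2 is lowest at day 9 and Myoz2 leaves the background only at day 14.

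Actn2 encodes alpha-actinin-2, the muscle alpha-actinin that crosslinks thin filaments at the Z-disc. Its level was -2.91, -3.01, -2.90 and -2.95 on the mESC arrays. It was 0.83, 2.47, 2.21 and 1.29 at day 9, and 0.91, 1.41, 1.05 and 1.62 at day 14. Every array of both days lay above every mESC array, and the day 14 values fell inside the day 9 range. The log2 fold change was 4.64 ± 0.32 (SE, adjusted p = 5.8e-08) at day 9 against mESC, which is 25.0-fold. At day 14 it was 4.19 ± 0.32 (adjusted p = 1.3e-07), or 18.3-fold. Between the days the change of -0.45 ± 0.32 was not called (adjusted p = 0.233).

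Ldb3 encodes a PDZ and LIM domain protein, also called cypher or ZASP, that binds alpha-actinin. Its brightest probe read -3.09, -3.33, -3.27 and -3.46 on the mESC arrays. The day 9 arrays read -2.07, -0.22, -0.69 and -1.50, and the day 14 arrays -1.21, -0.67, -0.88 and -0.62. The mESC arrays did not overlap either day, whereas both days overlapped each other. The log2 fold change was 2.17 ± 0.33 (adjusted p = 7.6e-05) at day 9 and 2.44 ± 0.33 (adjusted p = 2.6e-05) at day 14. All 3 Ldb3 probes were called higher at both days. The other 2 were not well above background on any mESC array, and were at least 10.7-fold and 4.81-fold higher at day 9 and at least 14.2-fold and 6.27-fold higher at day 14. These 2 entered the test only through the later groups, so a difference from mESC was built into their selection. Between the days the 3 probes moved by 0.27 to 0.41 and none was called.

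Tcap encodes telethonin, which caps the Z-disc ends of 2 titin molecules, and Csrp3 encodes the muscle LIM protein. Tcap was at 0.51, 1.77, 1.75 and 1.44 at day 9 and at 0.95, 1.35, 1.13 and 1.75 at day 14. On the mESC arrays it was not well above background, with readings of -7.19 to -5.48. Both days therefore stood apart from mESC, at least 106-fold higher at day 9 (adjusted p = 4.2e-09) and at least 101-fold higher at day 14 (adjusted p = 3.8e-09). Csrp3 was at 1.80, 3.48, 3.17 and 2.60 at day 9 and at 2.46, 2.88, 2.58 and 3.16 at day 14. It too was not well above background in mESC, and was at least 279-fold higher at day 9 (adjusted p = 3.2e-09) and at least 280-fold higher at day 14 (adjusted p = 2.6e-09). Such a bound sets the mean of the bright group against the lowest signal well above background on each dim array, so the change itself may be larger. Neither gene was called between the days, with changes of -0.08 ± 0.38 for Tcap (adjusted p = 0.874) and 0.01 ± 0.45 for Csrp3 (adjusted p = 0.990).

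Myoz2 encodes calsarcin-1, a Z-disc protein that binds alpha-actinin and the phosphatase calcineurin. Unlike the other Z-disc genes it was measured only at day 14, at -1.50, -0.92, -1.28 and -0.52. On 4 of 4 day 9 arrays it was not well above background, with readings of -7.39, -5.99, -5.83 and -5.55, and on the mESC arrays it read -7.27 to -7.12. The day 14 arrays lay above all arrays of the other groups. Myoz2 was at least 24.8-fold higher at day 14 than at day 9 (adjusted p = 3.0e-07) and at least 19.8-fold higher than in mESC (adjusted p = 9.6e-09). Because it passed the filter only through the day 14 arrays, both differences were built into the selection, and these p-values do not test them independently. The day 9 reading differed from mESC by 1.00 ± 0.35 and was not called, and both were below background. Leaving out day 9 replicate 1 moved that difference to 1.40, past the threshold. Its upstream window is one of the 2 with a MEF2 match.

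Ankrd1 encodes the cardiac ankyrin repeat protein CARP, which binds titin in the I-band and is also found in the nucleus. At day 9 its level was 2.49, 4.11, 3.37 and 2.88, and at day 14 it was 2.81, 3.24, 2.80 and 3.58. On the mESC arrays it read -7.56 to -7.42, below background on all of them. Ankrd1 was at least 381-fold higher at day 9 (adjusted p = 2.5e-11) and at least 353-fold higher at day 14 (adjusted p = 2.1e-11) than in mESC. The days overlapped, and the change of -0.11 ± 0.30 between them was not called (adjusted p = 0.765).

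Ttn encodes titin, the molecular spring of the sarcomere, and was read by 8 probes. Probe A_51_P148509, the brightest, was the only one of the 8 well above background on every mESC array, at -2.13, -1.97, -2.15 and -1.77. It read -1.004, 0.77, 0.53 and -0.33 at day 9, and -1.31, -0.86, -0.94 and -0.43 at day 14. No array of either day fell to the mESC range. The log2 fold change of this probe was 2.00 ± 0.34 (adjusted p = 0.00019) at day 9 and 1.12 ± 0.34 (adjusted p = 0.0093) at day 14 against mESC. The day 14 call rests on a value close to the threshold: without day 14 replicate 4 the change was 0.97, with median scaling 0.89 and with normexp background correction 0.81, and none of these was called. The change of -0.88 ± 0.34 between the days was not called in spite of an adjusted p of 0.042, since it fell short of the minimum fold change. It passed at -1.21 without day 9 replicate 1, at -1.03 without day 14 replicate 4 and at -1.05 with median scaling.

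The titin probes differed in the size of the change. All 5 tested Ttn probes were called higher at day 9 than in mESC, and 4 of the 5 at day 14. Except for A_51_P148509, they entered the test only through the later groups, so a difference from mESC was built into their selection. The probe not called at day 14 was A_52_P454295 (adjusted p = 0.142). A_52_P524700 was above background on 0 of the 4 mESC arrays, and was at least 18.0-fold higher at day 9 (adjusted p = 3.8e-08) and at least 11.1-fold higher at day 14 (adjusted p = 1.0e-07). A_51_P401792 was above it on 2 of the 4, and was higher by 5.75 ± 0.52 and 4.80 ± 0.52 on the log2 scale. Both probes were designed on a different titin transcript record from the other 6. A_52_P454295 and A_52_P569906 were above background on 0 of the 4 mESC arrays too, and were at least 2.997-fold and 2.78-fold higher at day 9. At day 14 the bound was 1.56-fold for A_52_P454295, without a call. For A_52_P569906, at a mean of -5.39, no bound could be set at day 14, so its call there gives no measured size. The difference between probes was not tested. All 5 probes read lower at day 14 than at day 9, by 0.70 to 1.51, and 1 of them fell past the threshold, A_52_P569906 at -1.51 ± 0.37 (adjusted p = 0.0040). The 3 untested probes were above background on at most 2 arrays of a group.

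**Figure D2:**
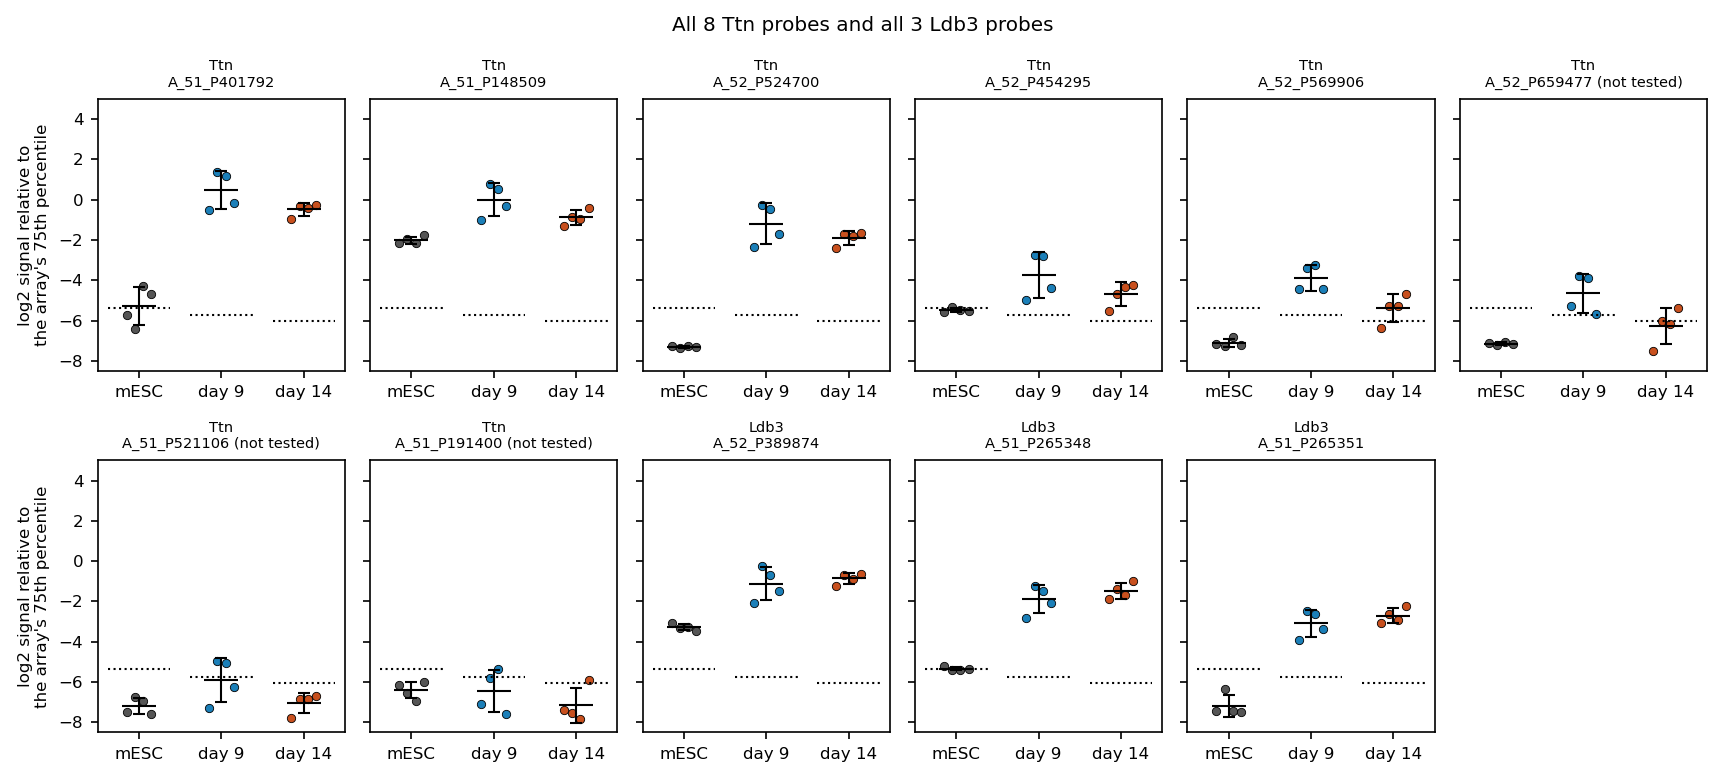
Level of all 8 Ttn probes and all 3 Ldb3 probes on every array (log2 signal minus the 75th percentile of the array), for mESC, day 9 and day 14. Points are arrays, long bars are means, error bars are SD (n = 4) and dotted lines mark the lowest level well above background. Most Ttn probes sit at or below the dotted line in mESC, while A_51_P148509 sits well above it, and the tested Ttn probes are a little lower at day 14 than at day 9.

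Myom1 encodes myomesin-1, the general crosslinker of thick filaments at the M-band. Its level was -5.14, -4.38, -4.68 and -4.47 on the mESC arrays, 3 of which were well above background. At day 9 it was -0.07, 1.44, 1.25 and 0.41, and at day 14 it was 0.06, 0.38, 0.08 and 0.44. The mESC arrays lay far below both days, and the day 14 values all fell inside the day 9 range. The log2 fold change was 5.42 ± 0.30 (adjusted p = 1.0e-08) at day 9 and 4.91 ± 0.30 (adjusted p = 2.1e-08) at day 14, which are 42.9-fold and 30.0-fold. Between the days the change of -0.52 ± 0.30 was not called (adjusted p = 0.159).

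Myom2 encodes M-protein, a second myomesin of adult fast and cardiac muscle, and went the other way. It was bright on the mESC arrays, at 1.61, 1.71, 1.72 and 1.68. At day 9 it read -2.72, -2.02, -2.28 and -2.39, and at day 14 it read 0.84, 1.23, 0.97 and 1.60. The 3 groups did not overlap, in the order mESC, day 14 and day 9 from high to low. Myom2 fell by 4.04 on the log2 scale at day 9 against mESC (SE 0.17, adjusted p = 7.7e-10), 16.4-fold lower. At day 14 it was 3.51 ± 0.17 higher than at day 9 (adjusted p = 1.9e-08), which is 11.4-fold. Its difference of -0.52 ± 0.17 from mESC at day 14 was not called (adjusted p = 0.013), as it was under the minimum fold change. Only 1 probe reads Myom2, so no second probe bears on this order. A high level in stem cells was thus read where the cardiomyocyte markers were low: the signals of the 7 markers, each relative to the 75th percentile, summed to 1.69 to 1.85 on the mESC arrays.

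Des encodes desmin, the intermediate filament of muscle, and was read by 1 probe with 10 spots. It was at -1.63, -1.65, -1.50 and -1.63 in mESC. At day 9 it was at 1.44, 2.16, 1.99 and 1.33, and at day 14 at 1.21, 1.45, 1.06 and 1.27. Both days lay above every mESC array and overlapped each other. The log2 fold change was 3.33 ± 0.17 (adjusted p = 4.0e-09) at day 9 and 2.85 ± 0.17 (adjusted p = 1.3e-08) at day 14, or 10.1-fold and 7.22-fold. Between the days it changed by -0.48 ± 0.17, which was not called for its size (adjusted p = 0.027). Desmin is also made in smooth muscle, and the smooth muscle markers moved beside it: 4 of 5 were higher at each day than in mESC. Their summed signal was 119 to 137 at day 9 and 95.5 to 106 at day 14, against 9.87 to 10.5 in mESC. Most of the mESC sum came from an Acta2 probe at 2.89 to 3.05 there, whereas the Acta2 probe with 10 spots read -4.08 to -3.87. The size of the rise in the sum thus depends on the probe. The part of smooth muscle cells in the desmin result was not tested.

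**Figure D3:**
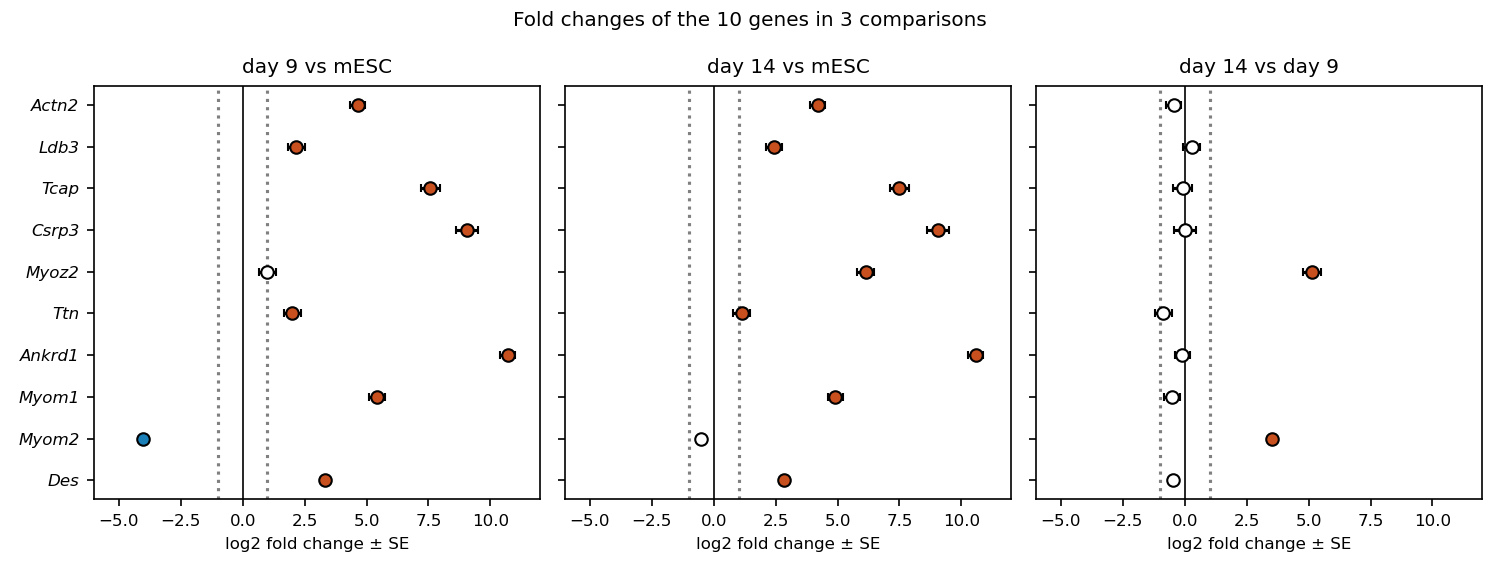
Log2 fold change with its SE (horizontal axis) of each of the 10 genes (vertical axis) in the 3 comparisons, from fits over 12 arrays. Red points were called higher, blue points lower and open points were not called, with dotted lines at the minimum fold change. For Tcap, Csrp3, Ankrd1 and Myoz2 the fitted values rest on a group below background, and only the bounds in the text measure them. Between the days Myoz2 and Myom2 alone stand to the right.

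Between the days, where Myoz2 and Myom2 rose, the cardiomyocyte markers were divided. Limma called 0 of the 7 higher at day 14 than at day 9 and 2 lower, and their median change was -0.46. The lower ones were Actc1 at -1.01 ± 0.18 (adjusted p = 0.00057) and Nkx2-5 at -1.18 ± 0.30 (adjusted p = 0.0053). Tnnt2, at -0.57 ± 0.21 (adjusted p = 0.032), was lower but under the minimum fold change. Tnni3 at 0.96 ± 0.26 (adjusted p = 0.0070) and Myl2 at 0.78 ± 0.23 (adjusted p = 0.013), a troponin and a myosin light chain of heart muscle, had positive changes at an unadjusted p below 0.05, missed only the minimum fold change, and their arrays did not overlap between the days. The summed signal of the 7 was 79.8 to 112 at day 14, inside the 76.7 to 174 at day 9. Since Myoz2 and Myom2 are also genes of skeletal muscle, the markers of that tissue were read too. Of 10 markers 8 were tested and 3 were higher at day 14 than at day 9, Myog, Ckm and Tnnt3. The summed signal of the 8 was 8.93 to 11.0 at day 14 and 6.14 to 8.75 at day 9. Most of that sum came from Tnni2 and a Myh4 probe, neither called between the days, at 0.64 ± 0.15 and 0.25 ± 0.34. Another Myh4 probe was not well above background at either day. The probe that stood for Myh1 was not called. A second Myh1 probe was above background on 0 of 4 day 9 and 4 of 4 day 14 arrays, with means of -7.76 and -3.96. It passed the filter only through day 14. Myog, the differentiation factor of skeletal muscle, was below background at day 9 and at least 8.76-fold higher at day 14 (adjusted p = 3.6e-09). The satellite cell gene Pax7 and the early factor Myf5 were not well above background in either group. The part of skeletal muscle cells in the result was not tested. Macrophage markers differed most between the days, with a summed signal of 14.5 to 18.3 at day 14 and 0.195 to 0.286 at day 9. Their part was not tested.

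To compare the genes within an array, each was also set against Actn2 on the same array. In an exact two-sided permutation test of the 4 day 14 against the 4 day 9 arrays, the smallest p that could be reached was 0.0286. It was reached by 6 of the 9 genes, Myoz2, Myom2, Ldb3, Csrp3, Ankrd1 and Ttn, whose adjusted p over the 9 genes was 0.0429, meaning that the arrays of the days did not overlap. Without the ratio, 57.4% of all genes did not overlap between the days. The share of all genes relative to Actn2 was not computed, so the count of 6 is not read as particular to these genes. Relative to Actn2, Myom2 was higher at day 14 than at day 9 by 3.96 and Ldb3 by 0.72, Csrp3 by 0.46 and Ankrd1 by 0.34 on the log2 scale, while Ttn was lower, at -0.43. No size is given for Myoz2, which was below background at day 9 and passed the filter only through day 14. Tcap at 0.37 (adjusted p = 0.184), Myom1 at -0.07 (adjusted p = 0.514) and Des at -0.03 (adjusted p = 0.857) missed the threshold. These ratios show unequal change within an array, not which gene moved. Without day 9 replicate 3 or any 1 of the day 14 arrays the 6 missed the threshold, at adjusted p of 0.0514 to 0.0857, with differences of 3.82 to 3.99 for Myom2, 0.66 to 0.77 for Ldb3, 0.42 to 0.48 for Csrp3, 0.22 to 0.37 for Ankrd1 and -0.48 to -0.38 for Ttn. With normexp correction they missed it too, with adjusted p from 0.0857 to 0.698. The differences were then 3.17 for Myom2, 0.75 for Ldb3, 0.43 for Csrp3, 0.30 for Ankrd1 and -0.11 for Ttn.

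Within each of the later days most of the genes were high or low on the same arrays. In mESC no array was lowest in more than 5 of the 10, while replicate 3 was highest in 6, with a mean deviation of 0.18. Tcap, Csrp3, Myoz2 and Ankrd1 were below background there, so their order in mESC may be noise. On the day 9 arrays, replicate 1 was lowest in 9 of the 10 genes and replicate 2 highest in 9. Their mean deviations from the day 9 mean were -0.81, 0.61, 0.36 and -0.17 on the log2 scale for replicates 1 to 4. On the day 14 arrays replicate 1 was lowest in 8 genes and replicate 4 highest in 9, with mean deviations of -0.31, 0.12, -0.17 and 0.36. The summed signal of the cardiomyocyte markers had the same order at day 9, at 76.7, 174, 155 and 105, and at day 14, at 79.8, 101, 86.5 and 112. The summed signal of the skeletal muscle markers had that order on both days too. It was 6.14, 8.75, 8.63 and 6.81 at day 9 and 8.93, 10.4, 10.0 and 11.0 at day 14. Its Myh4 probe had this order at day 9, at 0.83, 2.61, 2.34 and 1.27. Tnni2 and Tnnt3 did not, at 2.02, 1.25, 1.70 and 2.02 and at -2.29, -2.62, -2.31 and -2.05. A further Myh4 probe was not well above background at either day. The liver or visceral endoderm markers summed in that order at day 9, at 35.8, 61.4, 46.4 and 41.6. The fibroblast markers ran in the opposite order at day 9, at 278, 157, 204 and 273, but not at day 14, at 386, 394, 369 and 351. The median SD of the 10 genes was 0.11 in mESC, 0.72 at day 9 and 0.33 at day 14, against 0.078, 0.14 and 0.088 over all genes, so these genes were less even between day 9 arrays than the median gene. The fits share 1 variance per gene over the 3 groups, so the SE may be too small where day 9 enters and too large for day 14 against mESC. What set the arrays of a day apart was not tested.

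**Figure D4:**
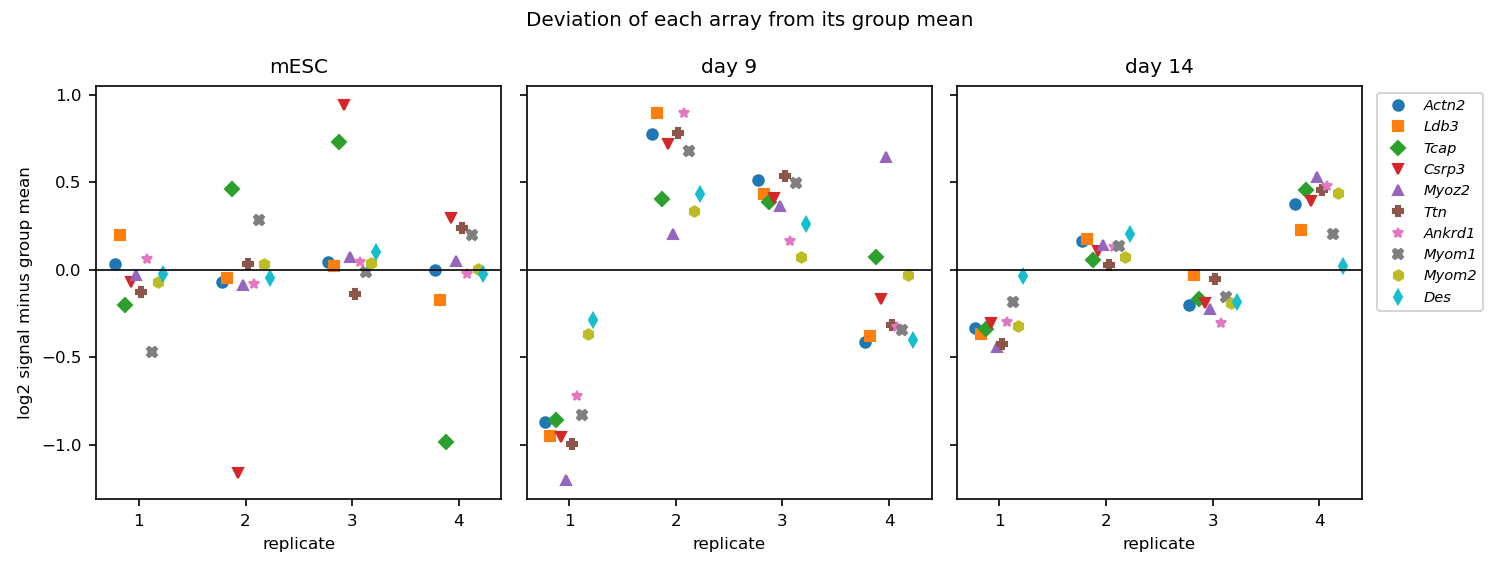
Deviation of each array from the mean of its group (vertical axis, log2 signal) for the 10 genes, by replicate (horizontal axis), in mESC, day 9 and day 14. Each symbol is a gene. At day 9 nearly all genes are low on replicate 1 and high on replicates 2 and 3, at day 14 they are low on replicate 1 and high on replicate 4, and in mESC the wide points are those of Tcap and Csrp3, which lie below background there.

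The 8 genes most like these 10 over the 12 arrays were ranked. Likeness was the Pearson correlation with the mean of the 10 standardised profiles, and since the arrays fall into 3 groups it mainly reflects the step from mESC to the later days. That mean includes Myom2, which correlated at -0.55 with the mean of the other 9. The first was Atp2a2, the calcium pump of the sarcoplasmic reticulum, at r = 0.998. It was followed, each at r = 0.996, by Eef1a2, an elongation factor of muscle and neurons, Vldlr, a lipoprotein receptor, Nppa, the atrial natriuretic peptide, and Srl, sarcalumenin. Cacnb2, a calcium channel subunit, Adcy5, an adenylyl cyclase, and Abcd2, a peroxisomal transporter, had the same r. All but Vldlr were called higher at both days than in mESC. Vldlr differed by 0.69 and 0.79, under the minimum fold change.

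Other genes of these or adjoining structures divided. Of 30 further genes, of the Z-disc or associated with it or its thin filaments, 29 were tested. At day 9 against mESC 17 of them were higher and 4 lower, and at day 14 13 were higher and 4 lower, with medians of 1.37 and 0.99. Tmod1, tropomodulin, which caps the pointed ends of thin filaments, was at least 99.1-fold higher at day 9 (adjusted p = 2.3e-11) and at least 38.1-fold higher at day 14 (adjusted p = 7.5e-11). Nexn, nexilin, was higher by 5.94 ± 0.19 (adjusted p = 7.6e-11) and 5.55 ± 0.19, and Flnc, filamin C, by 4.50 ± 0.05 (adjusted p = 5.3e-14) and 4.80 ± 0.05. Synpo2, the actin-bundling protein myopodin, was at least 27.2-fold higher at day 9 (adjusted p = 1.1e-12) and at least 6.65-fold higher at day 14 (adjusted p = 1.6e-11). Fhl2, a LIM protein of the heart, was higher by 4.59 ± 0.07 at day 9 and 6.27 ± 0.07 at day 14. Lmcd1, a LIM protein also known as dyxin, was higher by 2.60 ± 0.22 and 4.70 ± 0.22. Myot, myotilin of the Z-disc, was lower, at least 11.8-fold at day 9 (adjusted p = 1.1e-07) and at least 14.9-fold at day 14 (adjusted p = 2.9e-08). Tmod1 and Synpo2 entered the test only through the later days and Myot only through mESC, so these differences were built into the selection.

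Between the days 4 of the 29 were higher at day 14 and 5 were lower, with a median of -0.53. Fhl2 was higher by 1.68 ± 0.07 (adjusted p = 7.2e-09), Lmcd1 by 2.11 ± 0.22 (adjusted p = 7.9e-06) and Nrap, a scaffold of early myofibrils, by 1.61 ± 0.14 (adjusted p = 1.6e-06). Xirp2, an actin-binding protein of the intercalated disc, was below background at day 9 and at least 2.90-fold higher at day 14 (adjusted p = 0.00012), and against mESC it was lower at both days, at least 7.67-fold at day 9 and at -1.40 ± 0.37 at day 14. Synpo2 was lower by one probe, at -2.03 ± 0.12, and not called by a second, at -0.47. Nebl, nebulette, was lower at -1.51 ± 0.27 (adjusted p = 0.00056).

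The 13 further M-band genes and titin partners were split, with 4 higher and 4 lower at day 9, and 3 higher and 4 lower at day 14, against mESC. Their medians were -0.46 and -0.0083. Unc45b, the myosin chaperone, was higher by 6.87 ± 0.25 (adjusted p = 2.4e-10) at day 9 and 4.71 ± 0.25 at day 14, and Hspb7, a small heat shock protein of heart, by 4.76 ± 0.26 and 4.95 ± 0.26. Obsl1, a cytoskeletal adaptor that binds titin and myomesin, was higher by 3.69 ± 0.12 and 3.95 ± 0.12. Alpk3, a kinase-like M-band protein, was lower, at -2.23 ± 0.28 at day 9 and -3.33 ± 0.28 at day 14. Between the days limma called 0 of the 13 higher and 4 lower. Trim63, a ubiquitin ligase that binds titin, was the 1 gene with a positive change at an unadjusted p below 0.05, at 0.72 ± 0.24 and under the minimum fold change. The lower ones were Unc45b at -2.15 ± 0.25, Trim55 at -1.16 ± 0.27, Alpk3 at -1.10 ± 0.28 and Trim54 at -1.02 ± 0.30. The Trim genes encode ubiquitin ligases of muscle.

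Of 9 further intermediate filament genes 5 were higher and 2 lower at day 9, and 5 were higher and 1 lower at day 14, against mESC. The medians were 1.51 and 1.94. Vim, vimentin, a type III filament like desmin, was higher by 2.88 ± 0.06 (adjusted p = 2.0e-12) at day 9 and 2.75 ± 0.06 at day 14. The epithelial keratins were higher too: Krt8 by 3.92 ± 0.05 and 2.61 ± 0.05, Krt18 by 3.58 ± 0.08 and 2.67 ± 0.08, and Krt19 by 2.91 ± 0.14 and 2.95 ± 0.14. Lmna, the nuclear lamin A/C, rose by 1.51 ± 0.09 and 1.94 ± 0.09. Sync, syncoilin, a muscle filament protein, was at -2.18 ± 0.09 at day 9 and was not called at day 14, and Synm, synemin, was at -1.12 ± 0.13 and -1.20 ± 0.13, with a second Synm probe not called. Between the days Sync was higher by 1.36 ± 0.09 (adjusted p = 2.1e-07) and Krt8 lower at -1.31 ± 0.05 (adjusted p = 2.2e-09). Beside the keratins, the liver or visceral endoderm markers summed to 35.8 to 61.4 at day 9 and 190 to 205 at day 14, against 0.0335 to 0.0857 in mESC, and the part of such cells was not tested.

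Relatives of the 10 genes often behaved otherwise. Of the other alpha-actinins, Actn3, the fast skeletal form, was lower at -2.79 ± 0.11 at day 9 and -3.44 ± 0.11 at day 14 against mESC. The non-muscle forms were not called: Actn1 differed by 0.20 and -0.65, and Actn4 by -0.22 and -0.15. Myom3, the third myomesin, was lower at both days, at -3.76 ± 0.29 (adjusted p = 1.7e-07) and -3.60 ± 0.29 (adjusted p = 2.2e-07), and differed by 0.17 between the days, where Myom2 differed by 3.51. Myoz1, the skeletal myozenin, was higher at day 9 by 2.08 ± 0.20 and lower at day 14 than at day 9, at -1.18 ± 0.20, opposite in sign to Myoz2, though a second Myoz1 probe at -0.99 was not called between the days. Csrp1 and Csrp2, the relatives of Csrp3, were higher at day 9 by 1.13 ± 0.05 and 1.03 ± 0.05 and not called at day 14. Ankrd2 and Ankrd23, which like Ankrd1 bind titin, were not called in any comparison. Ankrd23 differed by 0.19 at day 9, whereas Ankrd2 was above background on 0 of 4 mESC and 1 of 4 day 9 arrays, so that a change in it could hardly be read. No test set one relative against another.

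**Figure D5:**
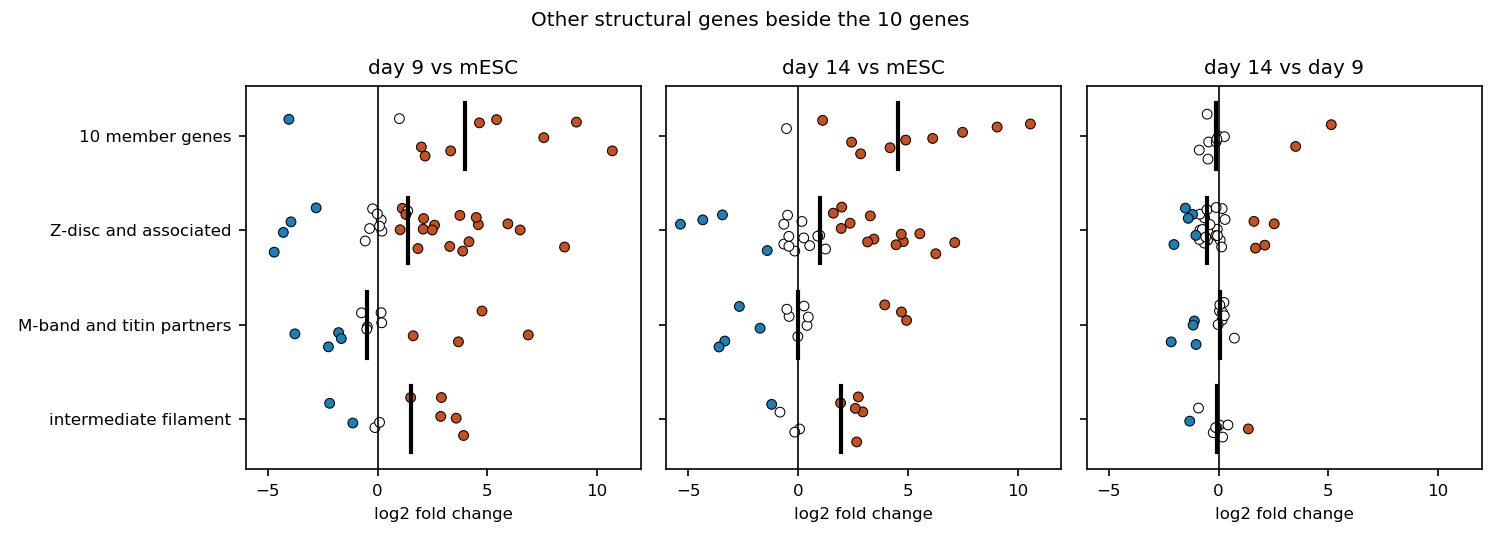
Log2 fold change (horizontal axis) of the 10 genes and of the tested genes of 3 further lists (vertical axis) in the 3 comparisons. Points are genes, red where called higher, blue where called lower and open where not called, and black bars are medians. The medians of the 10 genes against mESC are 3.99 and 4.55, and those of the 3 lists lie between -0.46 and 1.94.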

How the data were processed

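Total RNA was labelled with Cy3 as cRNA and hybridised to one-colour Agilent arrays, per the labels. Per the file headers and the submitters' processing notes, Agilent Feature Extraction 12 gave the deposited processed signal, an intensity that was background-subtracted and spatially detrended, with no scaling between arrays. The median signal and local background are intensities without correction, per the file headers. The deposited flags, a score of 0 or 1, mark spots well above background, saturated spots and outliers, per the file headers. The deposited series table held the same intensities, with 0 differing values.

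Of 45018 spots per array 43379 were no controls, and outlier spots were left out. Here the log2 processed signal was reduced by the 75th percentile of each array, and spots of a probe were averaged. Testing a probe required 3 of 4 arrays in any group to be well above background, and 28385 probes passed. RefSeq accessions in a GRCm38.p6 annotation gave names to 28223 probes. Each gene, or unnamed accession, was represented by its brightest tested probe. Groups were compared with limma 3.58.1 in R 4.3.3, with moderated variances over 12 arrays, two-sided and adjusted by Benjamini-Hochberg over 20875 genes. The script was tested on simulated data. Every one of the 10 genes is named, and up to 6 called genes with the largest change of each further list in each comparison, the relatives of the 10 genes and the 8 most similar profiles. One gene was left out of the further lists and their counts. Genes and lists were chosen with earlier results of these data known. Replicate numbers did not pair the samples. Alternatives were normexp with an offset of 50 (on median signals, as no mean signal was used here), quantile and median scaling, the series table, other filters and probes, other models, and leaving out each array.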

Additional observations from a re-analysis of the deposited data

Results flagged for a closer look

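One value stood apart from the other arrays of its group. Des read -1.50 on mESC replicate 3, while the other 3 mESC arrays lay between -1.65 and -1.63. The gap was small beside the difference of 3.33 at day 9 from mESC. The 10 genes in 3 groups gave 30 such checks of 4 arrays, of which chance flags about 1 in 20.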

How the results depend on the processing

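Of 30 fold changes of the 10 genes under 693 alternatives, 677 kept their side of the threshold, 0 called values reversed, 4 lost the call (Ttn at day 14 against mESC) and 12 gained one; 13 of the 677, in 5 fold changes called in neither setting, changed sign. With only probes above background on all arrays, 5, 4 and 1 of the 10 genes were called in the comparisons of day 9 and day 14 with mESC and of the days, in that order throughout, since fewer genes were tested. All-gene counts were then 5484, 6432 and 1305, and 9 of the other structural genes were called between the days. With normexp the counts were 4750, 5836 and 1226 genes and 9 other structural genes between the days. Without a minimum fold change they were 17402, 17769 and 13219, with 4 of the 10 genes and 30 others between the days. Leaving out an array gave 9 to 10, 8 to 9 and 2 to 3 of the 10 genes, 36 to 37, 30 to 32 and 12 to 16 others, and 8544 to 8631, 9755 to 9803 and 2839 to 2924 genes. Normexp shrank changes of dim genes, Ankrd1 to 5.77, Csrp3 to 5.11, Tcap to 3.73 and Myoz2 to -0.04 at day 9 against mESC; the cause was not tested. Myoz2 at day 9 passed with quantile normalization (1.13) and without mESC replicate 3 (1.021) or 4 (1.013). Median scaling moved the all-gene medians by -0.06, -0.23 and -0.17. Relative to Actn2, Tcap passed at 0.53 (adjusted p = 0.0367) without day 9 replicate 4. Same-numbered samples correlated at -0.075 to 0.18, with 1 of 12 pairs above 0.1 and 5 of 12 matching their own number best, and a replicate block gave 9, 9 and 2 of the 10 genes and 8564, 9783 and 2876 genes. Signal over background limits the bounds.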

Other observations

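Besides Myom2, some striated muscle genes read higher in stem cells than at the later days. These were singled out after their values were seen. Actn3 was at 0.81, 0.77, 0.88 and 0.92 on the mESC arrays, from -2.10 to -1.71 at day 9 and from -2.73 to -2.29 at day 14. Myom3 was at 0.09, 0.08, 0.02 and 0.10 in mESC, from -4.72 to -2.98 at day 9 and from -3.70 to -3.25 at day 14. Myot was at -2.24 to -2.07 in mESC and not well above background on any later array. None of these groups of mESC arrays overlapped a later group, whereas the cardiomyocyte markers were all higher at the later days. Trim54 fell too, at -1.65 ± 0.30 at day 9 and -2.67 ± 0.30 at day 14 against mESC, and so did Capn3, a muscle protease that binds titin, at -1.77 ± 0.18 and -1.73 ± 0.18.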
